A study of Mus musculus with 41 samples.

Results

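The tumors described here are the 7 epithelial mammary tumors that arose after a high fat diet was given only through puberty, out of 29 epithelial tumors and 41 tumors in the series. They were chosen by their sample labels, which give a variable p53 morphology, a switch from high fat to low fat diet and an early or late occurrence. The 3 early tumors, named MSU_107R, MSU_117L and MSU_117R after their labels, had a latency under a year, and the 4 late tumors, MSU_108R, MSU_109L, MSU_110R and MSU_122Rb, a latency of a year or more. All 7 grew from fragments of Trp53-null BALB/c mammary duct placed in the cleared fat pads of wild-type BALB/c females, so the tumor cells lack Trp53 while vessels, fat and immune cells come from a host that has it. The hosts ate the high fat diet (HFD) during puberty and the low fat diet (LFD) as adults, a regimen called HFD-LFD, and the other epithelial tumors came from LFD (8 tumors), HFD (8 tumors) and LFD-HFD (6 tumors). The donor of each fragment is not given for each tumor, and MSU_117L and MSU_117R carry the same label number, so that they may or may not come from 1 mouse.

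Trp53 encodes p53, the transcription factor that halts the cell cycle or triggers cell death after DNA damage, and mammary epithelium without it forms tumors of several histologies after a long latency. The normal mammary epithelium has a luminal layer, marked by keratins 8 and 18 and able to make milk proteins, and a basal or myoepithelial layer, marked by keratins 5 and 14. Wnt ligands act through Frizzled and Lrp receptors and the transcription factors Lef1 and Tcf7, and switch on their own inhibitors, among them Axin2, the Naked cuticle genes and Notum. Interferons switch on antiviral genes, whose promoters often hold paired GAAA repeats.

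Each 2-color array compared the RNA of 1 tumor, in the red channel per the labels, with a universal mouse reference RNA in the green channel, and each value below is the log2 ratio of tumor over reference signal. The study's methods give the dyes the other way round. Over 19058 probes well above background in both channels on all 7 arrays, the green signals of any pair of arrays correlated at 0.973 to 0.998 and the red signals at 0.895 to 0.956, so the green channel was the more alike between tumors, as a shared reference would be. The slide number separates the groups completely: the 3 early tumors were hybridized on 1 slide and the 4 late tumors on another, so that slide and onset cannot be told apart in any early against late value below. The same holds in LFD, with 4 early tumors on 1 slide and 4 late tumors on another. In HFD and LFD-HFD only some early and late tumors shared a slide, so comparisons with the other regimens are not free of slide. Of the gene spots, the tumor signal exceeded background clearly, by the scanner software's own test, on 64.4% to 73.8% in the early tumors, and on 52.4% in MSU_108R, 92.6% in MSU_109L, 85.3% in MSU_110R and 94.9% in MSU_122Rb. Signals that pass this test are called well above background here. Spots flagged as outliers made up 8.04% of the MSU_122Rb array and 0.477% to 1.0% of the other 6. The epithelial keratin genes Krt8 and Krt18 and the adhesion genes Epcam and Cdh1 were well above background in the tumor channel of all 7 tumors. So were the mesenchymal gene Vim, the adipocyte gene Adipoq and the muscle gene Acta1, so these signals do not check the epithelial label.

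In the HFD regimen, the scanner values of MSU_40R4A, MSU_57R and MSU_65R resembled another tumor's column of the authors' matrix more (r of 0.965 to 0.968) than their own (0.759 to 0.837). Their labels are therefore in doubt, and each comparison with HFD below rests partly on them. The limma fit pools the spread of all 29 epithelial tumors, these included. Its standard errors and p-values within HFD-LFD therefore rest partly on them as well.

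The correlation of log2 ratios was 0.767 to 0.789 for pairs of early tumors, 0.732 to 0.860 for pairs of late tumors and 0.691 to 0.862 for pairs of an early with a late tumor, so the 3 ranges overlapped. With limma and Benjamini-Hochberg adjustment over 21384 genes, 1 gene was higher and 1 gene was lower in the early tumors at an adjusted p under 0.10, which is 0.00935% of the genes tested (0.00468% in each direction). At an unadjusted p under 0.05 there were 886 genes higher (4.14%) and 758 lower (3.54%), together 7.69% of those tested. Where all 7 values were present, all early tumors stood above all late tumors for 900 of 19865 genes (4.53%) and below them for 608 (3.06%). These p-values set a difference against the spread between tumors of a group, pooled over all 29 epithelial tumors and not the 7 alone. They do not cover the variation between slides, and they count MSU_117L and MSU_117R as separate tumors. Fewer cells of a type and less RNA per cell cannot be told apart in whole tumors.

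Prkaca, which encodes the alpha catalytic subunit of cAMP-dependent protein kinase, was the gene that rose in the early tumors. Its log2 ratio was -0.30 in MSU_107R, -0.56 in MSU_117L and -0.61 in MSU_117R among the early tumors. In the late tumors it was -1.76 in MSU_108R, -1.86 in MSU_109L, -1.53 in MSU_110R and -2.01 in MSU_122Rb. The groups did not overlap, and the gap between them was wider than the spread within either group. The early mean of -0.49 ± 0.16 (SD, n = 3) stood 1.30 ± 0.21 (SE) above the late mean of -1.79 ± 0.20 (SD, n = 4), a 2.46-fold difference (limma adjusted p = 0.0179). In the 22 epithelial tumors of the other regimens Prkaca ran from -2.08 to -0.61 with a median of -1.33, so the early HFD-LFD tumors lay at and above the top of that range and the late ones within it.

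The onset difference of Prkaca had the opposite sign in LFD (-0.60 ± 0.19) and HFD (-0.39 ± 0.19), and was 0.02 ± 0.22 in LFD-HFD (SE), none of which passed the test. Set against the mean of those 3 differences, the HFD-LFD difference was larger by 1.62 ± 0.24 (limma adjusted p = 0.00946). By that comparison 2 genes were called (0.00935%), and 7.54% of all genes had an unadjusted p under 0.05. Without the 3 HFD tumors of doubtful label the value was 1.62 as well (adjusted p = 0.0253). A single probe stands for the gene, at chromosome 8, 86519301 to 86519360 of the mm9 build as the array files give it, and its tumor signal passed the background test in all early and in 3 of the 4 late tumors. The call was lost when MSU_122Rb was left out (adjusted p = 0.135), when MSU_117L and MSU_117R were counted as 1 tumor (0.128), in a fit of the 7 tumors alone (0.674), in the authors' matrix (0.258), and with normexp and loess, where the difference was 0.73 (0.936).

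Sult1c2, which encodes a cytosolic sulfotransferase, was the gene that fell, and it is named because it was called, after its values were seen. Its log2 ratio was -5.10 in MSU_107R, -4.92 in MSU_117L and -4.86 in MSU_117R, and its tumor signal was not well above background in any of these 3. In the late tumors the log2 ratio was 0.99 in MSU_108R, -1.80 in MSU_109L, -3.00 in MSU_110R and -1.12 in MSU_122Rb, all well above background. The early tumors therefore have only an upper limit. On the processed signals, the mean of Sult1c2 was at least 2.35-fold lower in them than in the late tumors (limma adjusted p = 0.0179, of the fit on the ratios as measured). That limit sets the mean late tumor signal against the dimmest signal well above background on each early array or, where higher, the gene's own, with the channels of all epithelial arrays made comparable by Aquantile normalization. The call was lost under the same 5 changes as that of Prkaca. The measured difference of -3.73 became -0.87 with normexp and loess. This is smaller than the limit (1.23 in log2), so the limit holds only for the processed signals.

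**Figure D1:**
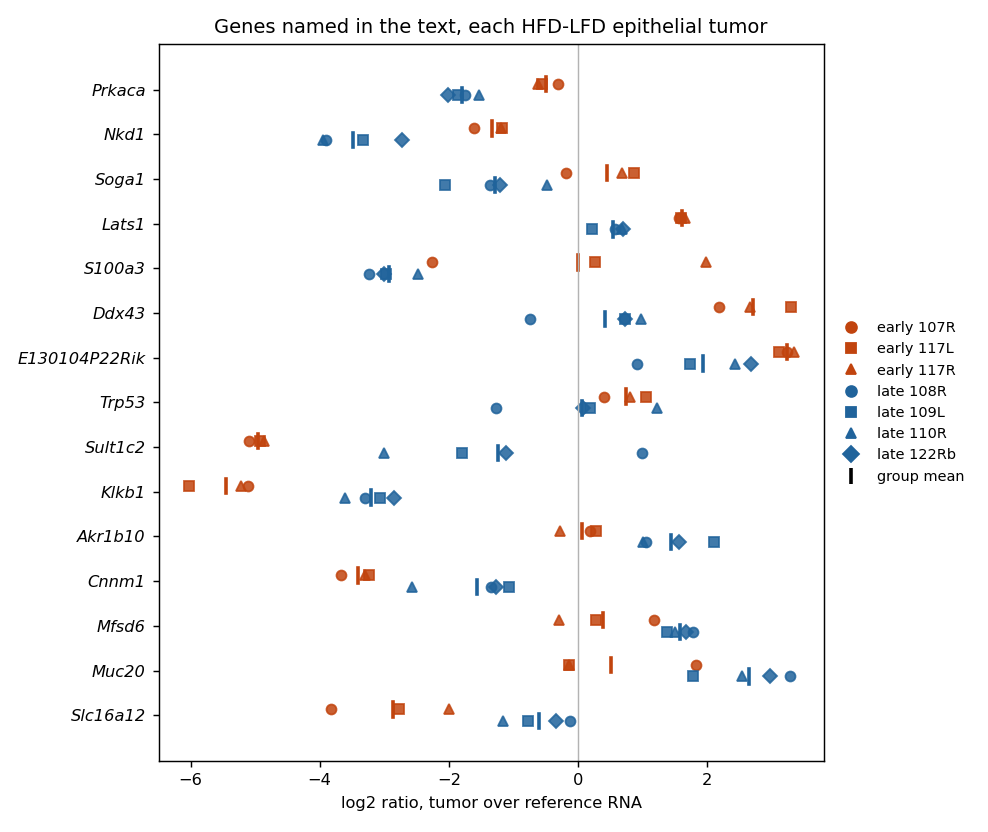
Log2 ratio of tumor over reference RNA (horizontal axis) for the genes named by rule or fixed by name, and Sult1c2, in the 3 early (red) and 4 late (blue) HFD-LFD epithelial tumors, with short bars at the group means and tumor names without the prefix MSU. The early points of Prkaca lie between -0.61 and -0.30 and its late points between -2.01 and -1.53, and the early points of Sult1c2 are not well above background.

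Nkd1, a feedback inhibitor that binds Dishevelled in the Wnt pathway, was the other gene whose onset difference departed from those of the other regimens. It was -1.61 in MSU_107R, -1.18 in MSU_117L and -1.19 in MSU_117R, and -3.90, -3.33, -3.95 and -2.73 in MSU_108R, MSU_109L, MSU_110R and MSU_122Rb. All early tumors lay above all late tumors, by 2.15 ± 0.45 (SE) in the mean, which was not called on its own (limma adjusted p = 0.158). The onset difference was -1.13 in LFD, -1.04 in HFD and -0.28 in LFD-HFD, and the HFD-LFD difference exceeded their mean by 2.97 ± 0.52 (SE, limma adjusted p = 0.0947). This call is close to the threshold and was kept in 4 of 20 alternative settings, among them the fit without the 3 HFD tumors of doubtful label (3.20, adjusted p = 0.0253).

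A second Nkd1 probe did not show the same separation. It gave -1.81, -0.75 and -0.23 in MSU_107R, MSU_117L and MSU_117R, against -2.99, -0.38, -1.19 and 0.39 in MSU_108R, MSU_109L, MSU_110R and MSU_122Rb, with a difference of 0.11 between the means. The groups overlap on this probe. The first 30 of the 60 bases of each probe are shown, since the Nkd1 call depends on which probe stands for the gene and Prkaca has a single kept probe. The Nkd1 probes start at bases 1687 and 3995 of the transcript and lie on chromosome 8 at 91116160 to 91116219 and 91118468 to 91118527 (mm9), and the Prkaca probe starts at base 1249.
Nkd1 probe used: cactaatatttagccagccttcatgtagaa
Nkd1 second probe: taagagatcaaggtagcgcataaaggctta
Prkaca probe: gtttactgagttttaggggtgtgcttgtgc

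**Figure D2:**
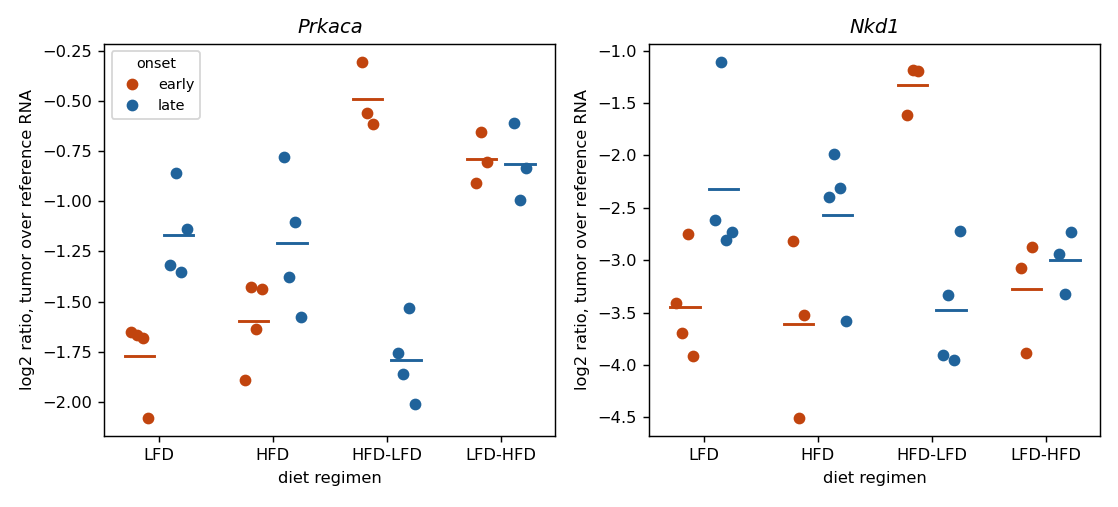
Log2 ratio of tumor over reference RNA (vertical axis) of Prkaca and Nkd1 (the probe used in the fit) in the epithelial tumors of the 4 diet regimens (horizontal axis), early in red and late in blue, with lines at the group means. For both genes the early mean lies above the late mean in HFD-LFD (-0.49 against -1.79, and -1.33 against -3.48) and below it in LFD and HFD.

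The Wnt list shows which other members separated the onset groups. Of 23 members tested, 13 were higher and 10 lower in the early tumors, with a median difference of 0.34 beside 0.05 over all genes, and none was called. All early values lay above all late values for 4 members and below them for 2, beside 4.53% and 3.06% of all genes. Lef1, the transcription factor at the end of the pathway, was 0.31, 2.21 and 1.56 in MSU_107R, MSU_117L and MSU_117R and -2.50, -0.87, -0.83 and -0.95 in MSU_108R, MSU_109L, MSU_110R and MSU_122Rb, a difference of 2.65 ± 0.93 (SE, limma unadjusted p = 0.00892, adjusted p = 0.506). Its 3 early values were the only positive ones.

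Nkd2, the paralog of Nkd1, was 3.19, 2.97 and 3.28 in the early tumors and 1.62, 1.28, 2.04 and 2.89 in the late ones, a difference of 1.19 ± 0.49 (SE). Notum, an extracellular enzyme that inactivates Wnt ligands, was 0.31, 0.38 and 0.45 against -0.26, -0.29, -0.25 and -0.03, a difference of 0.59 ± 0.28 (SE). Both separated without overlap, and MSU_122Rb came closest to the early tumors in both. The ligand Wnt11 (-1.54 ± 0.75) and the secreted antagonist Dkk2 (-1.11 ± 0.77, SE) lay lower in all early tumors. The feedback gene Axin2 differed by -0.88 with overlap, on a tumor signal that passed the background test in 1 of the 3 early tumors, so the inhibitors of the pathway did not share 1 direction. Without MSU_117L the median of the list was -0.33, so its sign rests on that tumor.

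Another 4 genes fill the rule for higher values without being called, with limma adjusted p of 0.158 to 0.213 for these and Nkd1. Lats1, a kinase of the Hippo pathway, was 1.56, 1.6 and 1.66 in the early tumors and 0.58, 0.21, 0.68 and 0.70 in the late ones, a difference of 1.06 ± 0.24 (SE). S100a3, a calcium-binding protein, was -2.26 in MSU_107R against 0.27 in MSU_117L and 1.99 in MSU_117R, with late values from -3.24 to -2.47, so that MSU_107R lay next to the late tumors. Ddx43, an RNA helicase, was 2.19 to 3.30 early and -0.74 to 0.97 late, and its reference signal was well above background on 4 of the 7 arrays. Its difference of 2.30 fell to 0.74 in the alternative setting with the lowest value. Soga1 differed by 1.73 on the probe used and by 0.20 and 0.57 on its 2 other probes.

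The rule gives 6 genes for lower values, none of them called, with limma adjusted p of 0.136 to 0.311. Akr1b10, an aldo-keto reductase, was 0.19, 0.28 and -0.28 in the early tumors and 1.06, 2.10, 1.02 and 1.56 in the late ones, a difference of -1.37 ± 0.28 (SE) that its second probe gave as -1.41. Muc20, a membrane mucin, was 1.82 in MSU_107R, -0.14 in MSU_117L and -0.13 in MSU_117R, against 3.28, 1.79, 2.54 and 2.97 in the late tumors, and MSU_107R and MSU_109L overlapped. Mfsd6 differed by -1.20 on the probe used and by -0.59 and -0.27 on its other probes.

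Klkb1, the gene of plasma prekallikrein, differed by -2.25, Cnnm1 by -1.84 and the monocarboxylate transporter family gene Slc16a12 by -2.26, each without overlap. Across the alternative settings their smallest differences were -0.90, -0.69 and -0.66, so these sizes depend on the processing. The tumor signal of each of these 3 genes was well above background in 1 of the 3 early tumors. The dim end of the arrays differed between the onset groups, and so between the slides, in both channels. The 10th percentile of the tumor signal was 6.47 to 7.68 on the early arrays. On those of MSU_108R, MSU_110R, MSU_109L and MSU_122Rb it was 10.9, 18.3, 62.8 and 82.1. For the reference signal, from the same RNA on every array, it was 5.75 to 7.61 early. On the late arrays, in the same order, it was 9.53, 19.3, 63.8 and 83.9. The part of this in the differences of dim genes was not tested.

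Trp53 itself was 0.40, 1.05 and 0.80 in the early tumors and -1.27, 0.19, 1.23 and 0.07 in the late ones, with overlap and a difference of 0.69 ± 0.68 (SE, limma unadjusted p = 0.319). Its place relative to the deleted part of the gene is not given in the sources used here, and host cells carry the gene, so it does not check the genotype. E130104P22Rik, a transcript kept under the array's name, was 3.24, 3.12 and 3.34 in the early tumors and 0.92, 1.73, 2.43 and 2.69 in the late ones, a difference of 1.29 ± 0.35 (SE, limma adjusted p = 0.352), with differences of 0.70, 0.84 and 0.96 in LFD, HFD and LFD-HFD.

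Interferon response genes had higher mean ratios in the early tumors without a single call. Of 31 antiviral genes tested, 28 were higher and 3 lower in the mean, with a median difference of 0.65 beside 0.05 over all genes, and 6 reached an unadjusted p under 0.05, all higher, beside 4.14% of all genes. All 14 interferon-gamma-induced GTPases were higher in the mean, with a median of 0.92. No member of either list separated the groups, and MSU_117L lay among or below the late tumors on the mean of each list. Of 24 autoimmune genes that the study listed from tumors including these, all were higher (median 0.83, and 0.27 without MSU_107R or 1.71 without MSU_117L). That list is not independent evidence of its direction. The antiviral and GTPase lists share genes with it, among them Irf7, Herc6 and Tgtp1, so they are not independent of it.

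Several members divided the early tumors. Mx2, a GTPase that blocks viruses, was 5.31 in MSU_107R, 2.54 in MSU_117L and 5.19 in MSU_117R, and 3.08, 1.6, 3.47 and 2.40 in MSU_108R, MSU_109L, MSU_110R and MSU_122Rb, a difference of 1.71 ± 0.59 (SE, limma unadjusted p = 0.00802, adjusted p = 0.497). Mx1 was 6.06, 4.08 and 6.25 against 4.45, 2.74, 4.95 and 4.12. In both genes MSU_107R and MSU_117R stood above every late tumor and MSU_117L did not.

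Irf7, which amplifies the production of type I interferon, was 4.22, 1.19 and 3.16 against 1.28, 0.07, 2.51 and 1.89, with a difference of 1.42 ± 0.73 (SE). Ifitm3, a membrane protein that hinders viral entry, was 2.85, 1.67 and 3.63 against 1.16, 0.31, 2.42 and 2.11, with a difference of 1.22 ± 0.44 (SE, limma unadjusted p = 0.0105). The study, comparing early with late epithelial tumors of all diets, listed Ifitm3, Ifit2 and Irgm1 under down-regulated functions. Here Ifit2 (0.96) and Irgm1 (0.86) were higher in the early mean, as Ifitm3 was. Other genes under those functions are not set out here. Ddx58 (-0.19), which senses viral RNA, and Oas2 (-0.08), an oligoadenylate synthetase, were lower in the mean, as was Ifi35 by less than 0.01.

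Averaged over its 31 genes, the antiviral list stood at 3.82 in MSU_107R, 1.58 in MSU_117L and 3.47 in MSU_117R, and at 2.03, 1.31, 2.92 and 2.49 in MSU_108R, MSU_109L, MSU_110R and MSU_122Rb. The GTPase list stood at 3.78, 1.19 and 3.30 and at 2.07, 1.26, 2.37 and 2.01. The early tumor MSU_107R exceeded the highest of the 22 other epithelial tumors on the antiviral list (3.67), and MSU_117L lay near the lowest (1.28). Without MSU_117L the median differences were 1.34 and 1.70, and without MSU_107R they were 0.26 and 0.21, so the size of the difference rests on which early tumors are counted. The onset difference had the same sign in the other regimens, with medians of 0.85 in LFD, 0.80 in HFD and 0.46 in LFD-HFD for the antiviral list and 1.04, 1.18 and 0.47 for the GTPases.

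An element of paired GAAA repeats lay upstream of some of these genes, and of 3 of them the sequence is shown. The letters GAAA, any 2 bases and GAAA again, searched on both strands in the stretch upstream of each gene's start, of the length printed here, occurred in 8 of the 22 antiviral genes and 8 of the 9 GTPases with a promoter in the RefSeq table (GRCm38.p6), and in 3.04% of all 27025 promoters. Shown are the members with the smallest p among those that hold the element, with its letters in capitals (overlapping matches run together). They are Ifit1, whose product binds viral RNA (chromosome 19, 34640639 to 34640888, plus strand), Gbp7, a guanylate-binding GTPase (chromosome 3, 142530086 to 142530335, plus strand), and Isg15, a ubiquitin-like modifier (chromosome 4, 156200819 to 156201068, minus strand). A match is a description of the letters and not evidence of a bound factor.
Ifit1: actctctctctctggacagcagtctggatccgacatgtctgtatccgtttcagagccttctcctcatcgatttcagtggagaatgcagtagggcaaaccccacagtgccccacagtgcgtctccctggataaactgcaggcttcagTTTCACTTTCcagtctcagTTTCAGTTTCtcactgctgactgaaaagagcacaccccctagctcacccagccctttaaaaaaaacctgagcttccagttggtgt
Gbp7: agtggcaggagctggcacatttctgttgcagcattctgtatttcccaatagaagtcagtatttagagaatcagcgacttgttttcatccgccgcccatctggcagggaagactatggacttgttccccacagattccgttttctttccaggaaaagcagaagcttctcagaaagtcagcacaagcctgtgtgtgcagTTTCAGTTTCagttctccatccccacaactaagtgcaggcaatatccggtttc
Isg15: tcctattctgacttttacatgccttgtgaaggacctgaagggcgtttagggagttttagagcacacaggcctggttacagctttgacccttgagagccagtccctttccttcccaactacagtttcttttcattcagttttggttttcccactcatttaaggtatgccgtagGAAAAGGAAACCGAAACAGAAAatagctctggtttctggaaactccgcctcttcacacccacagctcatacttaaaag

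In MSU_107R, MSU_117L and MSU_117R these genes read 5.64, 2.66 and 5.34 (Ifit1), 3.21, 1.09 and 4.16 (Gbp7) and 3.05, 1.84 and 3.56 (Isg15). In the late tumors they spanned 2.06 to 4.62, 0.84 to 2.41 and 0.78 to 2.89. All 3 were highest in MSU_107R or MSU_117R and overlapped with the late tumors through MSU_117L.

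Genes of antigen presentation, which interferons also induce, had median differences near or below 0. Of 12 class I genes 6 were higher and 6 lower, with a median difference of -0.03, where the other regimens had medians of 0.76 (LFD), 0.61 (HFD) and 0.40 (LFD-HFD). Nlrc5, the activator of class I genes, was 6.28, 3.84 and 5.74 in the early and 5.40, 2.74, 2.64 and 4.64 in the late tumors, a difference of 1.43 ± 0.63 (SE, limma unadjusted p = 0.0309, adjusted p = 0.608). The heavy chain genes H2-K1 (-0.30) and H2-D1 (-0.08) and the immunoproteasome genes Psmb8 (-0.37) and Psmb9 (-0.34) were lower in the mean. Over the list, MSU_107R (3.06) and MSU_117R (3.21) resembled MSU_108R (3.02) and MSU_122Rb (2.86), and MSU_117L (1.32) resembled MSU_109L (1.41). Without MSU_117L the median was 0.61. The 9 class II genes had a median of -0.28 (2 higher, 7 lower), and 0.58 without MSU_117L.

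**Figure D3:**
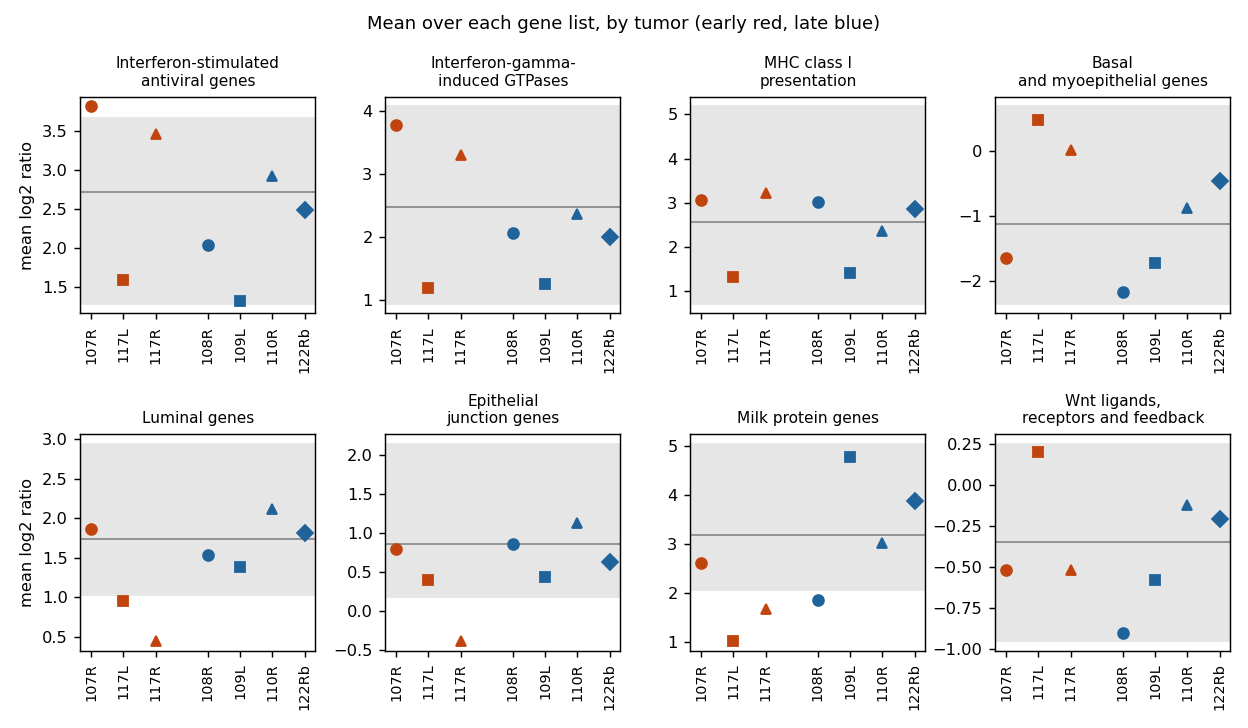
Mean log2 ratio over each gene list (vertical axis) in the 7 HFD-LFD epithelial tumors (early red, late blue), with the range of the 22 other epithelial tumors as a gray band and their median as a line. On the interferon lists MSU_107R and MSU_117R lie above all late tumors and MSU_117L among or below them, and on the luminal and junction lists MSU_117R is lowest.

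The keratin and junction genes split the early tumors in another way. Of 15 basal and myoepithelial genes, 13 were higher and 2 lower in the early tumors, with a median difference of 0.96 and none at an unadjusted p under 0.05. Krt5, a basal keratin, was -2.76 in MSU_107R, -0.25 in MSU_117L and 1.16 in MSU_117R, and -2.60, -3.14, -0.50 and -0.78 in MSU_108R, MSU_109L, MSU_110R and MSU_122Rb. Krt14, its partner, was -2.03, 1.5 and 1.39 against -2.01, -0.53, -0.15 and -0.09. The pair MSU_117L and MSU_117R had the highest values of both and MSU_107R some of the lowest.

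Krt17, another basal keratin, was -1.89, 2.61 and 1.75 in the early and -2.94, -1.90, 0.39 and 0.51 in the late tumors. Trp63, the transcription factor of basal cells, ran from 0.71 to 1.02 early and 0.49 to 0.72 late, a difference of 0.19 ± 0.21 (SE). Krt6b was 2.34 in MSU_117L alone, with all other values between -4.54 and -1.42. Over the list the means were -1.65, 0.48 and 0.01 in MSU_107R, MSU_117L and MSU_117R and -2.17, -1.72, -0.88 and -0.46 in the late tumors. Without MSU_107R the median difference was 2.0, and with MSU_117L and MSU_117R counted as 1 tumor it was 0.41. The same list had medians of 0.01 in LFD, -1.04 in HFD and -0.93 in LFD-HFD.

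Col4a1 and Col4a2, neighboring genes for the chains of basement membrane collagen, also had their highest values in MSU_117L and MSU_117R. Col4a1 was -1.54, 0.77 and 1.20 in the early and -1.82, -2.62, -0.31 and -1.24 in the late tumors, and Col4a2 was -1.26, 0.81 and 1.33 against -1.21, -2.19, -0.59 and -0.97. The differences were 1.64 ± 0.72 and 1.53 ± 0.61 (SE), at limma unadjusted p of 0.0325 and 0.0196, and both genes overlapped between the groups through MSU_107R.

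Most cell junction genes were lower in the mean of the early tumors, while their median difference was above 0 in the other 3 regimens. Of 14 members, 10 were lower and 4 higher, with a median difference of -0.96, against medians of 0.28 in LFD, 0.55 in HFD and 0.21 in LFD-HFD. An unadjusted p under 0.05 was reached by 4 members, all lower, beside 3.54% of all genes, and all early values lay below all late values for 3 members, beside 3.06% of all genes. None was called. The difference between regimens was tested gene by gene, and no member of the list passed that test.

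Tjp3, a scaffold protein of tight junctions, was 0.04, 0.02 and 0.73 in the early tumors and 2.96, 1.78, 1.40 and 1.44 in the late ones, a difference of -1.63 ± 0.54 (SE, limma adjusted p = 0.488). Cldn3, a claudin of the seal itself, was 2.27, 1.31 and 0.17 against 2.55, 2.60, 2.34 and 2.40, a difference of -1.23 ± 0.36 (SE, adjusted p = 0.402). Both separated the groups, and for Cldn3 MSU_107R lay next to MSU_110R. Epcam, an adhesion protein of epithelial cells, was 1.54, 1.39 and 0.86 against 2.62, 2.51, 3.32 and 1.89 and also did not overlap.

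Cldn7 was 1.95 in MSU_107R, -0.40 in MSU_117L and -1.68 in MSU_117R, against 0.98, 1.25, 1.40 and 1.75, so that MSU_107R was the highest tumor of all and MSU_117R the lowest. Cdh1, which encodes E-cadherin, was 1.08, -0.95 and 0.19 against 0.45, 2.07, 1.29 and 0.81, a difference of -1.05 ± 0.41 (SE). The desmosome genes Dsp (1.25) and Pkp1 (1.26) lay the other way, higher in the mean of the early tumors. Over the list MSU_117R stood at -0.39, below every other epithelial tumor of the other regimens (lowest 0.18), while MSU_107R (0.79) and MSU_117L (0.39) lay within the late range or next to it (0.43 to 1.12). Without MSU_117R the median difference was -0.40.

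Luminal genes were lower in the mean for 11 of 14 members, with a median difference of -0.57, none at an unadjusted p under 0.05, and medians of 0.39, 0.35 and 0.17 in LFD, HFD and LFD-HFD. Krt8 was 2.64 in MSU_107R, 0.81 in MSU_117L and 0.16 in MSU_117R and 1.84, 1.12, 2.17 and 2.63 in the late tumors, and Krt18 was 3.32, 1.05 and 0.57 against 2.64, 1.85, 2.47 and 3.20. In both, MSU_107R was the highest tumor and MSU_117R the lowest. Over the list, MSU_117L (0.96) and MSU_117R (0.45) lay below all 22 tumors of the other regimens (lowest 1.03). Without MSU_117R the median difference was -0.23.

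Milk protein genes were lower in the mean of the early tumors for 10 of 11 members, with a median difference of -0.99, and medians of -0.32, -0.56 and -0.38 in LFD, HFD and LFD-HFD. Csn2, which encodes beta-casein, was 4.38 in MSU_107R, 0.56 in MSU_117L and 4.64 in MSU_117R, and 8.65, 7.76, 5.68 and 6.58 in MSU_108R, MSU_109L, MSU_110R and MSU_122Rb, a difference of -3.98 ± 1.44 (SE, limma unadjusted p = 0.0109, adjusted p = 0.516). All early values lay below all late values. Csn1s2a was 2.73, -2.73 and 1.34 against 2.80, 7.93, 2.26 and 6.07, and Csn1s1 was 6.89, 3.18 and 4.89 against 3.57, 7.74, 7.67 and 7.21.

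The other milk genes overlapped more widely. Wap, the whey acidic protein gene, ran from -1.74 to 1.1 early and from -1.88 to 3.5 late, and Elf5, the transcription factor of milk-producing alveolar cells, was 3.63, 2.49 and 1.43 against 1.22, 4.55, 4.02 and 3.91. The means over the list were 2.61, 1.02 and 1.68 in the early and 1.85, 4.79, 3.02 and 3.88 in the late tumors, so that the late tumor MSU_108R lay with the early ones. Without MSU_109L the median difference was -0.53, and without MSU_108R it was -1.91.

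**Figure D4:**
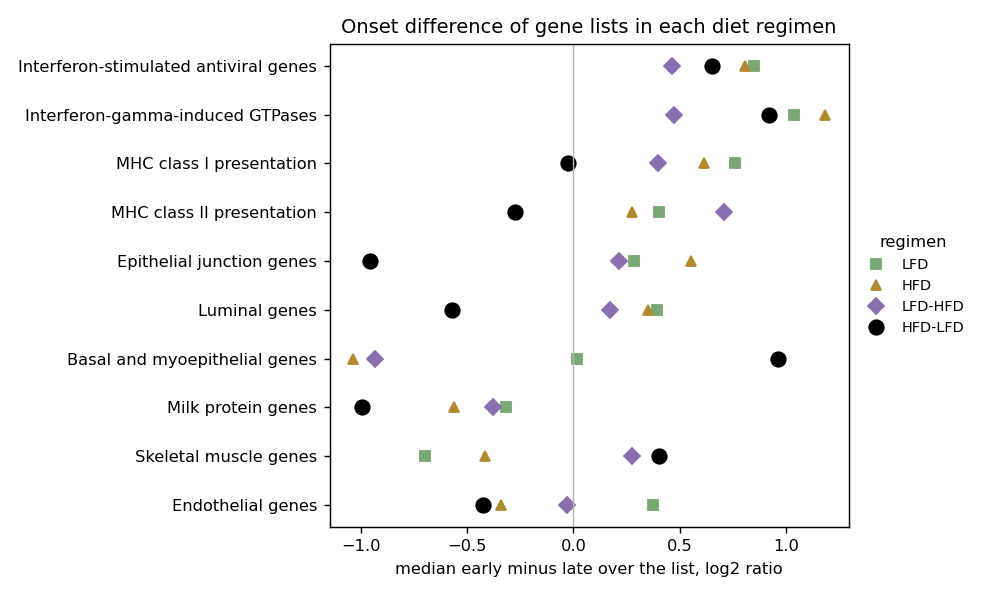
Median early minus late difference in log2 ratio over each gene list (horizontal axis) in each of the 4 diet regimens. The interferon lists are above 0 in all regimens, while the junction (-0.96) and luminal (-0.57) lists are below 0 and the basal list is at 0.96 in HFD-LFD and at 0.01, -1.04 and -0.93 in LFD, HFD and LFD-HFD.

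In the list of the RB pathway and Myc, 1 of 17 members lay higher in all early tumors and 1 lay lower, beside 4.53% and 3.06% of all genes. Rb1, the retinoblastoma protein that holds cells before DNA replication, was -0.50, -0.60 and -0.53 in the early and 0.30, 0.51, 0.58 and 0.70 in the late tumors, a difference of -1.07 ± 0.49 (SE, limma unadjusted p = 0.0399). Cdk4, the kinase that inactivates it, was 0.52, 0.72 and 1.02 against -0.26, 0.16, 0.35 and 0.21, a difference of 0.64 ± 0.23 (SE, unadjusted p = 0.0121). Neither was called. The list had 12 of 17 members higher and a median of 0.21. The 26 genes of cell division and DNA replication had a median of 0.15, and their mean was 0.82, 0.67 and 0.58 in the early and 0.06, 0.57, 1.37 and 0.09 in the late tumors.

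Respiratory chain subunits were lower in the mean for 17 of 22 genes, by a median of -0.17, with means of -0.99, -1.31 and -1.06 in the early and -0.77 to -1.03 in the late tumors, and without MSU_117L the median was -0.03. The p53 target genes had a median of -0.02 (8 higher, 9 lower). Phlda3, a repressor of Akt, was -0.63, 1.71 and 1.36 against -1.65 to 0.59, and Gadd45a, induced by DNA damage, was 0.19, -0.32 and -0.68 against 2.95, 1.21 and 0.97, with its MSU_122Rb spot missing as an outlier. The genes of cholesterol and fatty acid synthesis (0.18), fatty acid uptake and oxidation (-0.18), the insulin and IGF pathway (-0.04), glycolysis and hypoxia (0.14), Notch (0.16) and the circadian clock (0.09) had medians within 0.3 of that of all genes.

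**Figure D5:**
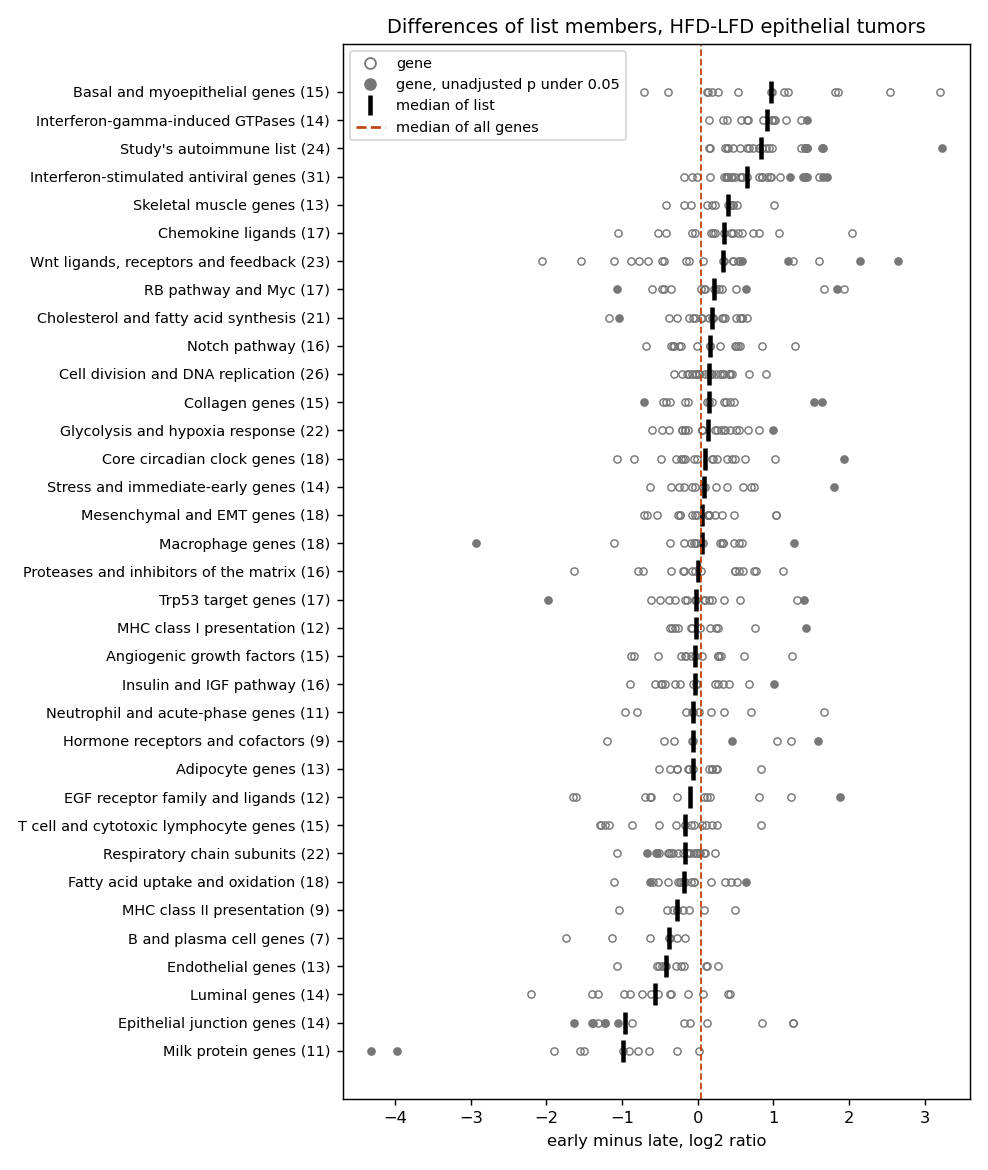
Early minus late difference in log2 ratio (horizontal axis) of each tested member of the 35 gene lists, with the number of members in parentheses, black bars at list medians and a dashed line at the median of all genes (0.05). Filled points have an unadjusted p under 0.05, no member is called in this comparison after adjustment, and list medians run from -0.99 for milk proteins to 0.96 for basal genes.

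Markers of host cells also differed between the tumors. Endothelial genes were lower in the mean for 10 of 13 members (median -0.43, and -0.11 without MSU_117R or -0.65 without MSU_117L), with list means of -1.81 to -0.98 early and -1.11 to -0.92 late. The list mean was 0.39 to 0.83 early and 0.32 to 0.95 late for macrophage genes, -0.78 to 0.72 and 0.30 to 0.73 for T cell and cytotoxic lymphocyte genes, and 0.08 to 1.05 and -0.45 to 2.39 for B and plasma cell genes. The T cell list was lowest in MSU_117L, which was also lowest among the early tumors on the interferon lists. Of the macrophage genes 10 of 18 were higher in the early mean, of the T cell genes 5 of 15 and of the B and plasma cell genes 0 of 7. The part of host cells in the differences was not tested.

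Among immune genes, Retnla, made by alternatively activated macrophages, was -3.02, -3.00 and -0.60 in the early and 1.15, 1.80, -0.32 and 0.28 in the late tumors, a difference of -2.93 ± 0.98 (SE, limma unadjusted p = 0.0063), with no overlap between the groups. It is the lowest difference of the 18 macrophage genes, whose median was 0.06. No other member separated the groups, beside 3.06% of all genes with all early values below all late values. Fcgr1, a high-affinity antibody receptor of macrophages, was 4.22, 1.63 and 3.26 against 2.61, 0.62, 2.05 and 1.80. Adipocyte genes ranged from -4.02 to -1.05 early and from -3.80 to -1.21 late, and were highest in MSU_117R, MSU_122Rb and MSU_109L, above all tumors of the other regimens (highest -2.13). Skeletal muscle genes were at -4.72 to -4.27 early and -5.21 to -4.60 late, far below the reference in all 7 tumors.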

How the data were processed

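RNA of 41 tumors was hybridized against Universal Mouse Reference RNA on 2-color Agilent arrays. The authors deposited scanner output with the processed intensity of each spot in both channels, background-subtracted and dye-normalized by Feature Extraction (11.0.1.1 or 10.5.1.1 in the headers, 8.5.1.1 per the labels), and a matrix of log2 ratios that the authors lowess normalized, with missing values imputed, used here as an alternative. All 7 arrays correlated best with the matrix column of their own label.

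The log2 ratio of processed tumor over reference intensity was taken for 39429 probes. Outlier spots (1.63% of gene values) were left missing. Probes over 10 in both channels on 80% of the 29 epithelial arrays were kept (27938), and the brightest kept probe stood for a gene, giving 21384 genes, 17232 of them named in the GRCm38.p6 gene table. limma 3.58.1 in R 4.3.3 (lmFit, eBayes) fitted 8 regimen and onset groups over 29 tumors, early minus late was tested within HFD-LFD and against the mean of the other 3 regimens, and genes were called at 0.10 after Benjamini-Hochberg adjustment over all genes. A difference is on the log2 ratio scale. Standard errors come from the limma fit. The fit was tested on simulated data. The number of arrays limits the precision, and no separate culture, litter or donor is given for a tumor.

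Genes named are those called, filled to 6 a direction by smallest p among genes whose tumor signal passed the background test on every array of the brighter group, on at least 1 array of the other, and in the reference channel on at least 50% of the 7 arrays. Also named are genes called against the other regimens, list members by value, Trp53 and E130104P22Rik. The regimen, the 35 lists and the named genes were chosen with earlier results of these data known. Of 582 list genes, 566 were tested. Alternatives changed the signals, centring, filter, outlier spots, probe choice, slide, tumors and threshold. The values of 1 list gene are not reported here.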

Additional observations from a re-analysis of the deposited data

Results flagged for a closer look

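In 54 groups of 4 late values examined, where chance alone marks about 1 in 20, 3 held a tumor far from the others: the share of outlier spots in MSU_122Rb (8.04%, others 0.50% to 0.802%), the mean over angiogenic growth factors in MSU_109L (-0.54, others -0.02 to 0.02) and Ddx43 in MSU_108R (-0.74, others 0.72 to 0.97). The early group, with 3 tumors, was not examined in this way. For Ddx43, the tumor signal of MSU_108R was 10.6, and 3 of the 4 late tumors passed the background test. The onset differences of Nkd1 and Prkaca in HFD-LFD differed from the mean of the other 3 regimens, by 2.97 (limma adjusted p = 0.0947) and 1.62 (limma adjusted p = 0.00946).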

How the results depend on the processing

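No paired analysis was possible because the labels give no replicate numbers that the onset groups share. Genes called higher and lower in the early tumors (1 and 1) became 0 and 0 with normexp and loess and in a fit of the 7 tumors alone. They were also 0 and 0 with MSU_117L and MSU_117R counted as 1 tumor. There were 0 and 1 in the authors' matrix and 1 and 2 after centring on each array's median. Without MSU_40R4A, MSU_57R and MSU_65R, the HFD tumors of doubtful label, there were 3 and 8. Probes well above background on 50% of the arrays gave 1 and 0, with Sult1c2 left out by that filter. Chosen after seeing the data, ratios scaled to the same spread gave 2 and 1. Also chosen after seeing the data, probes well above background in both channels on all 7 arrays gave 0 and 0. That filter left out both called genes, so it could not keep either call. Leaving out 1 of the 7 tumors gave 0 to 29 higher and 0 to 24 lower: 29 and 24 without MSU_107R, which leaves MSU_117L and MSU_117R as the early group, 8 and 11 without MSU_110R, 5 and 2 without MSU_117L, 2 and 2 without MSU_117R, 1 and 3 without MSU_108R, 0 and 0 without MSU_122Rb.

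Of genes whose onset difference was above or below that of the other regimens (2 and 0), 0 was above with normexp and loess, in the authors' matrix and with ratios scaled to the same spread. With probes above background on all 7 arrays 0 was above too, but that filter left out Prkaca. There was 1 with MSU_117L and MSU_117R as 1 tumor, median centring, the mean over probes, no filter, outlier spots kept, slide as a random block or a threshold of 0.05. There were 22 above and 25 below without MSU_40R4A, MSU_57R and MSU_65R. Leaving out 1 tumor gave 1 to 86 above and 0 to 67 below, the highest of both without MSU_107R. None of the 13 genes called or filling the rule reversed, and the other genes named were not compared across settings one by one. List medians moved by more than the spread between tumors in 10 cases and by less in 725. The cause of these changes was not tested.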
